A study of Mus musculus with 59 samples.

Results

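The insulin receptor substrate Irs4 and 9 further genes of insulin-like growth factor signalling are described here in a mouse model of serous epithelial ovarian cancer (SEOC). The 10 genes, out of 18193 with a probe set of their own, are the docking proteins Irs4, Irs1 and Irs2, the ligands Igf1 and Igf2, the receptors Igf1r, Igf2r and Insr, and the binding proteins Igfbp2 and Igfbp3. Every probe set that names only 1 of them was taken, 23 of 45037 in all. Irs4 was chosen by its level in tumors against normal epithelium, where it was high and variable, so that difference is given as a description with no test. Its variability among the tumors was part of that choice, so its tests between tumors are not independent of it.

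Insulin-like growth factors 1 and 2 bind the receptor tyrosine kinase Igf1r, and insulin and Igf2 also bind the related kinase Insr. The active receptors phosphorylate docking proteins of the Irs family, which recruit PI3 kinase and Grb2 and so reach the Akt, mTOR and MAP kinase pathways. Igf2r carries Igf2 to lysosomes, and the Igfbp proteins hold the ligands in the extracellular space. Irs1 and Irs2 are made in most tissues, whereas Irs4, which lies on the X chromosome, is restricted in the adult to few sites, among them the hypothalamus. Granulosa and theca cells of the ovary respond to these ligands, and growing follicles of the mouse make Igf1.

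RNA was profiled on 59 Affymetrix mouse arrays. The 3 samples of normal ovarian epithelium came from wild type FVB/NJ mice. All tumors arose in or were transplanted into mice of the same strain. They were induced by adenoviral Cre injected into the ovarian bursa and carry the TgK18 T121 transgene, in which the keratin 18 gene drives a fragment of SV40 large T antigen that inactivates RB function. The published set has 26 primary tumors, of which 14 are Brca1-deficient and p53-deleted (B1 fl/fl, p53 fl/fl), 3 are Brca1-deficient with a p53 missense allele (p53 m/fl), 5 are Brca2-deficient with that missense allele and 4 are p53-deleted with wild type Brca genes. The new set has 5 primary tumors, 2 Brca1-deficient (B1 D/D) and 3 Brca1 wild type, and 25 passaged tumors, which grew from tumor fragments placed under the ovarian bursa of syngeneic females. All tumors of the new set are p53-deleted (written cp D/D in the labels). Their labels write the transgene as K18 tg where Brca1 is deficient and as K18 D/D where it is wild type. The paper lists the transgene as tg/+ for the lines of both genotypes. Passages 1 and 2 hold 4 and 4 Brca1-deficient and 4 and 5 Brca1 wild type tumors, and passages 3, 4 and 5 hold 4, 2 and 2 tumors, all Brca1-deficient.

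Values are log2 RMA values, in which a difference of 1 is a doubling of signal. They ran from 3.25 to 14.31, with 4.18 as the 5th percentile and 11.95 as the 95th. The number of arrays limits the precision. Whether the 3 normal samples are from different mice is not stated, so their spread may be technical, and the sources do not tie a passaged tumor to its line, so tumors of the same line entered as separate samples and p-values may be too small. Passage 3 tumors 65021 and 64644 had nearly identical arrays (SD of their log2 difference 0.0722), as did passage 2 tumors 62803 and 61362 (SD 0.0803), which are labelled Brca1 wild type and Brca1-deficient. Every other pair had an SD of at least 0.209. Means and SDs count such a pair once, and omit the pair of mixed label where they are taken by genotype. Tumor 30200 was profiled in both sets and is counted in each. The normal samples also carried markers of other ovarian cells. The mean of 10 oocyte markers was 8.43 to 9.87 in normal samples and 4.95 to 5.89 in published tumors, with 10 of 10 lower in the tumors, and that of 10 granulosa, theca and luteal markers was 9.90 to 10.29 against 7.06 to 8.59, with 8 of 10 lower. Of 10 fibroblast markers 6 were lower, as were 7 of 7 T and NK cell, 3 of 6 smooth muscle and 3 of 8 endothelial markers, and of 12 epithelial markers 5 were higher. Among all probe sets 23.2% were lower and 18.5% higher in published tumors than in normal samples. In bulk RNA, fewer cells of a type and less RNA per cell cannot be told apart.

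The promoters of the docking protein genes are shown because Irs1, Irs2 and Irs4 share a stretch of bases there. Sequences are from RefSeq on GRCm38.p6, written 5′ to 3′ on the coding strand, and the capitals mark the shared stretch.
Irs4, chrX:141725335-141725395, minus strand: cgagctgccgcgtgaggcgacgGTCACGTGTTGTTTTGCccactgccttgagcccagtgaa
Irs2, chr8:11008937-11008997, minus strand: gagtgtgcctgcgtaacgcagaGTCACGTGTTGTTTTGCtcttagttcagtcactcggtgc
Irs1, chr1:82291525-82291578, minus strand: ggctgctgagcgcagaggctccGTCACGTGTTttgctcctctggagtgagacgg
Irs4 and Irs2 share the 17 bases GTCACGTGTTGTTTTGC, which lie 156 to 140 bases before the start of Irs4 and 46 to 30 bases before that of Irs2. Of 32851 promoter windows of 300 bases (250 before to 50 after a start), searched on both strands, 2 hold them, 0.00609%. These are the windows of Irs4 and Irs2 themselves, from which the stretch was taken. Irs1 shares the first 10, GTCACGTGTT, 117 to 108 bases before its start, and 25 windows hold these, 0.0761%, with those of Irs1, Irs2 and Irs4 included. The stretch contains CACGTG, the E-box core that reads the same on both strands, which 7.15% of windows hold. Among the 6 other members with a window, Igf2r and Igfbp2 hold CACGTG and the rest do not. A match is a description of sequence only.

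Irs4 (chrX:141710998-141725217) was at the low end of the array's range in normal epithelium and ran in tumors from that level to past the 95th percentile. Its leading probe set, the probe set of the gene with the highest mean over all arrays, had log2 values of 4.19, 4.29 and 4.23 in the normal samples. In the 56 tumors it ran from 4.13 to 12.83, with a median of 8.75 and a mean of 8.62 ± 2.80 (SD, n = 54). Only 1 probe set of 45037 had a larger SD over the tumors. Of the 56 tumors, 50 lay above all normal samples and 33 lay more than 4 log2 units above the highest of them, while 10 lay within 0.5 log2 units of it. The fitted log2 difference from normal epithelium was 4.53 in the published primary tumors and 4.40 in the passaged tumors, and these values are what the gene was chosen on. The normal values lay near the 5th percentile of all values, 4.18, where low levels are poorly told apart. The size of the difference is therefore uncertain, and the second probe set, given below, did not show the rise.

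Low and high tumors occurred within nearly every genotype. In the published set, the 4 Brca wild type tumors had Irs4 values of 5.55, 6.82, 9.54 and 10.70, and the 14 Brca1-deficient p53-deleted tumors ran from 4.21 through a median of 8.15 to 12.30. The p53-missense tumors were mostly high. The 3 with Brca1 deficiency had 7.91, 10.64 and 12.03, and the 5 with Brca2 deficiency had 4.40, 10.49, 11.35, 11.36 and 11.61, of which tumor 23172 at 4.40 stood far below the others. In the new set the Brca1 wild type tumors formed a low and a high cluster at every stage. The 3 primary tumors had Irs4 values of 4.32, 11.67 and 12.54, the 4 of passage 1 had 4.13, 4.15, 12.40 and 12.71, and the 5 of passage 2 had 4.13, 4.39, 11.98, 12.69 and 12.83. No Brca1 wild type tumor of the new set lay between 4.39 and 11.67. Brca1-deficient tumors of the new set filled that gap, with 18 values from 4.21 to 10.20 and a median of 8.66, and none of them reached the high cluster of the wild type tumors. The 2 genotypes of the new set overlapped only at the low end. Their difference in mean level did not pass the test (log2 fold change -1.10, 95% interval -3.44 to 1.24, adjusted p = 0.623 from limma).

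**Figure D1:**
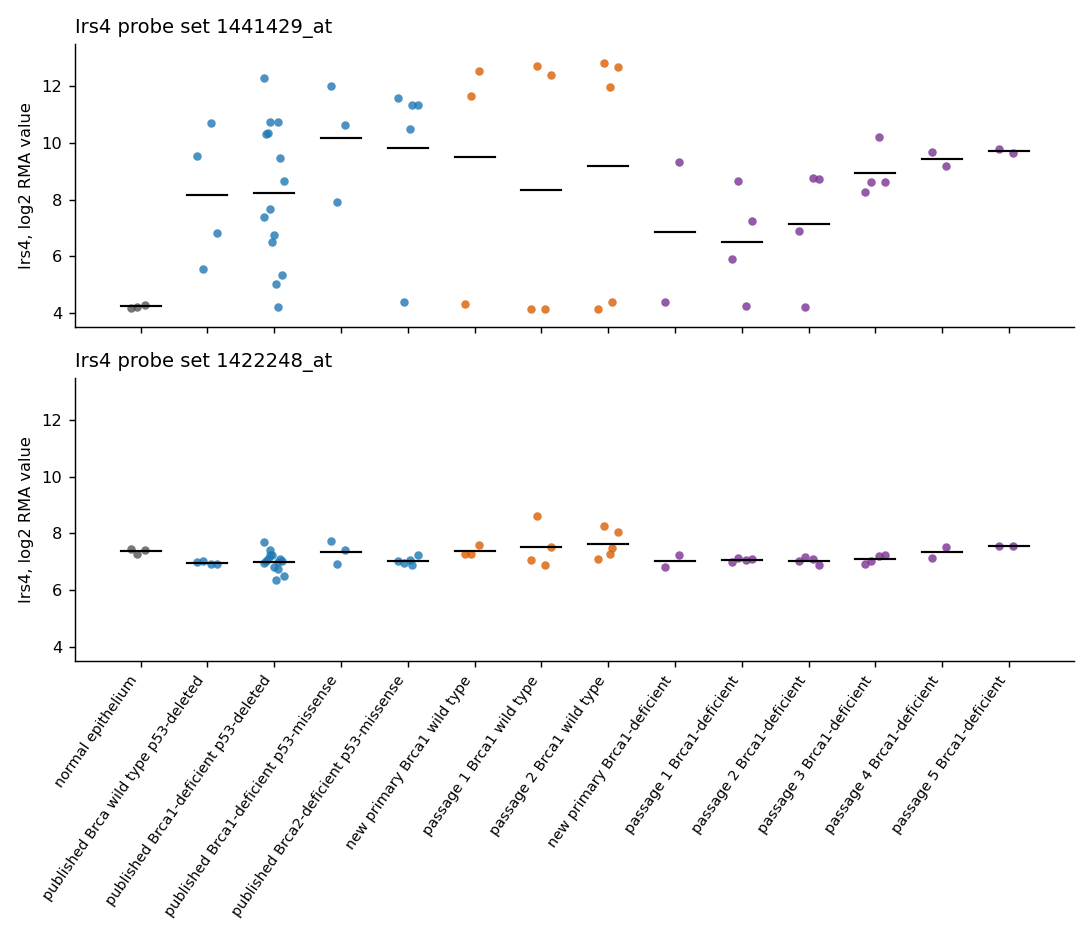
Log2 RMA values of the 2 Irs4 probe sets (y axis) in the normal samples and the 13 tumor groups (x axis), 1 point per array, with a line at the mean over arrays. On probe set 1441429_at the normal samples sit at 4.19 to 4.29 and the tumors spread from 4.13 to 12.83, while on 1422248_at all arrays lie between 6.37 and 8.62.

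The second Irs4 probe set, 1422248_at, did not show this range. It had log2 values of 7.45, 7.41 and 7.28 in the normal samples and 6.37 to 8.62 in the tumors, with a fitted difference of -0.33 in primary and -0.26 in passaged tumors. Over 54 tumor arrays, with near-identical arrays counted once, its values followed those of the leading probe set with a Spearman rho of 0.53. In the table that the authors merged with human data, which holds 1 value per gene, the Irs4 difference was 1.04 in primary and 1.03 in passaged tumors. The direction of the Irs4 difference from normal epithelium therefore depends on the probe set, and the probe set with the wide range carries every Irs4 value given below unless another is named.

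Irs1 was the member whose level followed Irs4 most closely across tumors. The Spearman rho between the genes was 0.62 over the 26 published tumors and 0.84 over 28 new arrays, which placed Irs1 at rank 137 of 18192 genes by the lower of the 2 values. Igfbp2 had 0.45 and 0.61, and Igf2 had 0.32 and 0.76. Those of Irs2, Igf1, Insr, Igf1r, Igf2r and Igfbp3 lay between -0.21 and 0.29. The points of each set share the array platform and the normalization, and genes are not independent replicates. The new arrays are 5 primary tumors and transplants, which the paper describes as derived from matching primary tumors. The values of the new set may therefore rest on few independent lines.

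The tumors with Irs4 near the normal level had low Igf2 and Irs1 as well. Igf2, a fetal growth factor that is imprinted and made from the paternal allele, ran from 6.49 to 7.81 in the 10 tumors with Irs4 within 0.5 of the highest normal sample, below its values of 10.21, 9.20 and 9.40 in normal epithelium. Irs1 ran from 9.91 to 11.12 in them, against 12.12, 12.24 and 12.12 in the normal samples. Igfbp2 ran from 8.59 to 10.16, and its normal values were 10.57, 9.89 and 10.52. Tumor 30200 belonged to these 10 on both of its arrays, with an Irs4 of 4.39 in the new set and 4.21 in the published set, an Igf2 of 7.40 and 7.13, and an Irs1 of 10.96 and 10.74. The near-identical arrays 62803 and 61362 are also among them. The 7 high Brca1 wild type tumors of the new set, with Irs4 at 11.67 to 12.83, had Irs1 at 11.97 to 12.40, in or near its normal range, and Igf2 at 10.01 to 11.39. The tumors low in Irs4 were picked by their Irs4 values, so these ranges carry no test.

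**Figure D2:**
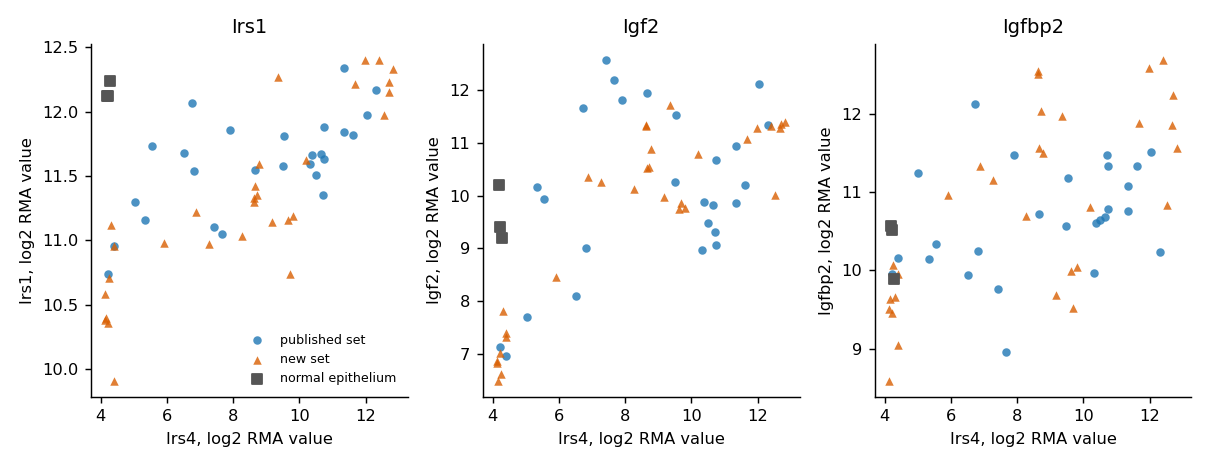
Log2 values of Irs1, Igf2 and Igfbp2 (y axes) against Irs4 (x axis) on every array, with published tumors as circles, new tumors as triangles and the 3 normal samples as squares. At the left edge the tumors lie below the normal samples for Irs1 and Igf2, and the rho of Irs1 with Irs4 is 0.62 in the published set and 0.84 in the new set.

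The 6 genes most like Irs4, by the lower of the 2 within-set Spearman values, were Ppp2r2c, Gpd2, Irx3, Slc23a3, Dpp4 and Hs3st3b1. Ppp2r2c, a regulatory subunit of protein phosphatase 2A, had a rho of 0.87 in the published and 0.93 in the new set. Gpd2, the mitochondrial glycerol-3-phosphate dehydrogenase, had 0.90 and 0.87, and the homeobox gene Irx3 had 0.87 and 0.88. Slc23a3, a member of the ascorbate transporter family, had 0.86 and 0.93, Dpp4, a cell surface dipeptidase that cleaves incretins, had 0.83 and 0.85, and Hs3st3b1, a heparan sulfate sulfotransferase, had 0.82 and 0.85. Unlike Irs4, these genes were not at the floor in normal epithelium. Ppp2r2c was at 10.77 to 11.56 in the normal samples and at 5.57 to 13.18 in passaged tumors, and Slc23a3 at 10.31 to 10.75 and 6.23 to 12.54. Slc23a3, Gpd2 and Dpp4 were also among the 6 most like Irs4 by Pearson correlation.

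The genes beside Irs4 on the X chromosome followed it less. Col4a5 and Col4a6, which encode chains of basement membrane collagen and lie next to Irs4 on the side of lower coordinates, had rho values of 0.36 and 0.43 in the published set and 0.39 and 0.70 in the new set. Atg4a, an autophagy protease beyond them, had -0.58 and -0.43. On the other side Nxt2 had -0.20 and -0.16 and Kcne1l 0.11 and 0.12, and Gucy2f, the nearest, has no probe set of its own.

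Against normal epithelium, the docking proteins other than Irs4 differed little in the published primary tumors. Over all probe sets 41.7% passed the threshold of an adjusted p of 0.05 in this comparison, and among the leading probe sets of the 9 members tested 1 was higher, 2 were lower and 6 did not pass, so the members were not called more often than probe sets in general. Irs1 (chr1:82233105-82291439) had values of 10.74 to 12.34 with a median of 11.65 in the tumors, and limma gave a log2 fold change of -0.56 (SE 0.22) with adjusted p = 0.0399. The ranges overlapped, and the Irs1 call was lost without any of the 3 normal samples (adjusted p = 0.0963 to 0.133). Irs2 (chr8:10984681-11008929) was at 6.78, 7.12 and 7.22 in normal samples and at 7.04 to 8.84 with a median of 7.45 in the tumors, with a log2 fold change of 0.48 (SE 0.25) that did not pass (adjusted p = 0.121).

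Of the ligands, Igf1 (chr10:87858265-87937047) was lower in tumors on 3 of its 4 probe sets. These 3, 1434413_at, 1419519_at and 1437401_at, had log2 fold changes of -1.61, -1.92 and -2.34 in primary tumors (adjusted p = 0.0321, 0.00171 and 0.00284 from limma), the first of which did not pass without any of the normal samples. On 1437401_at the normal samples were at 10.63, 10.66 and 10.73 and the published tumors at 5.09 to 10.15 with a median of 8.54, with no overlap. The leading Igf1 probe set, 1452014_a_at, had 10.35, 10.60 and 11.11 in normal samples against 7.93 to 11.31 in the tumors and did not pass (-0.75, SE 0.46, adjusted p = 0.199), although the mean of the 4 probe sets did (-1.66, adjusted p = 0.0125). Markers of several other cell types given above were also lower in the tumors, and their part in the lower Igf1 was not tested. Igf2 (chr7:142650768-142666816) had normal values within the wide range of the tumors, 6.95 to 12.57 with a median of 10.06, and did not pass (0.50, SE 0.89, adjusted p = 0.687).

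The receptors differed little from normal epithelium. Igf1r (chr7:67952257-68233668) was at 10.85, 11.23 and 11.08 in normal samples and 10.81 to 11.93 in published tumors (log2 difference 0.37, SE 0.16, adjusted p = 0.0657), while 1 of its 4 other probe sets, 1446303_at, rose by 0.69 (adjusted p = 0.0065). Insr (chr8:3150922-3279649) fell by 0.46 on its leading probe set (SE 0.14, adjusted p = 0.00881 from limma), with values of 10.86, 11.15 and 11.26 in the normal samples and 10.15 to 11.05 in the tumors. The other Insr probe sets had 0.23 and 0.06, the mean over its 3 probe sets was -0.06 (adjusted p = 0.596), and the call was lost without normal sample 1 or 2 (adjusted p = 0.0515 and 0.0843). Igf2r (chr17:12682406-12769706) had -0.07 (SE 0.19, adjusted p = 0.783).

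Igfbp3, the main carrier of these growth factors in serum, was the member with the clearest rise in tumors. Its leading probe set (gene at chr11:7206086-7215498) had values of 8.99, 8.31 and 8.88 in normal epithelium and 9.99 to 12.21 with a median of 10.89 in the published tumors, and the groups did not overlap. The rise was 2.21 on the log2 scale (SE 0.30, adjusted p = 1.06e-06 from limma), and the other Igfbp3 probe set had 3.04 (adjusted p = 7.65e-07). Passaged tumors were at 10.21 to 11.56, also above all normal samples. Igfbp2 (chr1:72824480-72852474), a binding protein of fetal tissues, had 0.34 (SE 0.40, 95% interval -0.48 to 1.15) and did not pass.

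In passaged tumors, compared with the same 3 normal samples through a model that joined both sets and carried a term for the set, 29.3% of probe sets passed, and of the 9 members tested 1 was higher, 1 was lower and 7 did not pass. Igfbp3 rose by 2.31 (SE 0.34, adjusted p = 3.03e-07 from limma) and Insr fell by 0.56 (SE 0.20, adjusted p = 0.0255), a call that did not hold without normal sample 1 or 2 (adjusted p = 0.0794 and 0.11). Irs1 had -1.03 (adjusted p = 0.0562), Irs2 0.65 (adjusted p = 0.0854) and the leading Igf1 probe set -1.29 (adjusted p = 0.12). The 3 further Igf1 probe sets, 1434413_at, 1419519_at and 1437401_at, had -2.31, -2.86 and -3.06 (adjusted p = 0.0184, 0.00176 and 0.00169). Because both comparisons share the normal samples, their values are given side by side only.

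**Figure D3:**
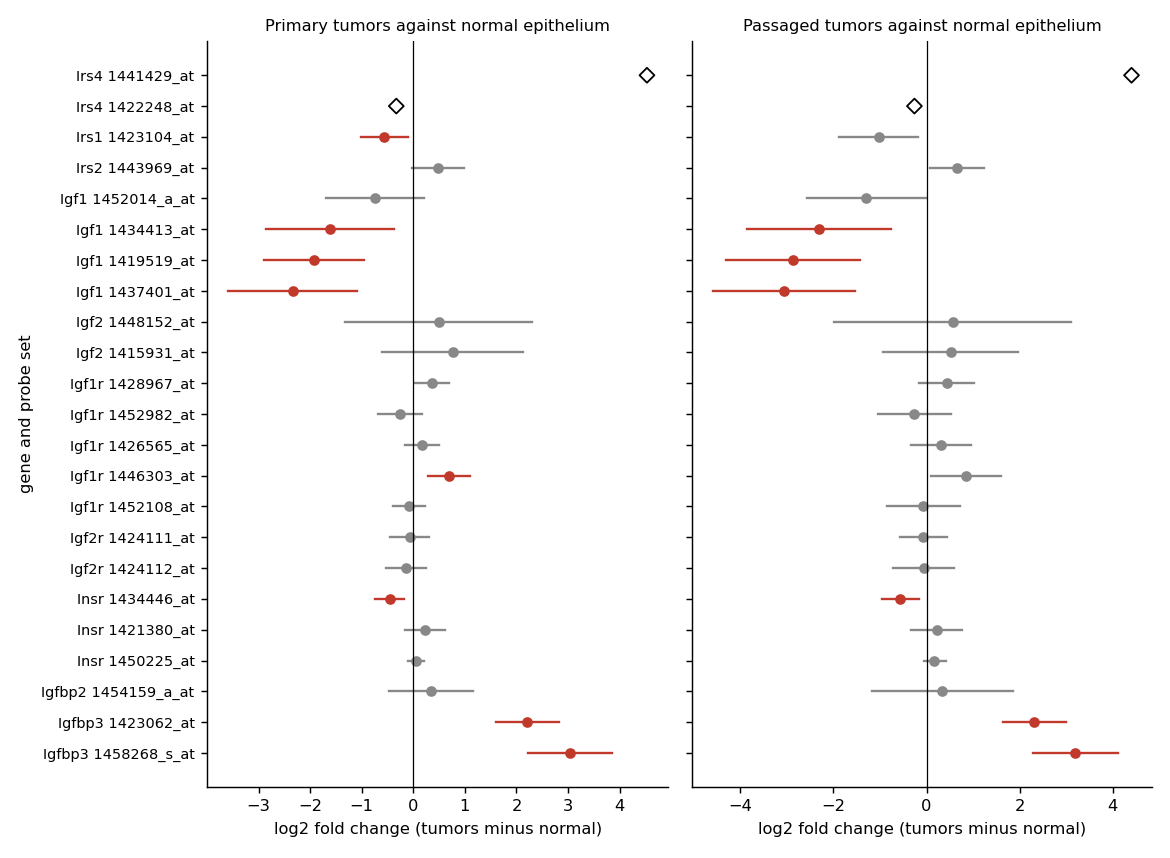
Log2 fold change (x axis, tumors minus normal epithelium) of the 23 member probe sets (y axis) in primary and in passaged tumors, with 95% intervals and probe sets past the threshold in red. Irs4, drawn as open diamonds with no interval because it was chosen on this contrast, lies at 4.53 and 4.40 on its leading probe set, and both Igfbp3 probe sets lie between 2.21 and 3.19.

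Other genes of the pathway, in lists drawn up with earlier results of these data known, moved in both directions against normal epithelium. In published primary tumors 12 of 52 measured genes were higher and 10 were lower, a share close to the 41.7% of all probe sets, and in passaged tumors 9 were higher and 6 were lower, where 29.3% of all probe sets passed. None of the counts by list below is read as particular to a list. Of 11 other ligands, binding proteins and their proteases, 4 were lower in published primary tumors, none was higher and 7 did not pass, and in passaged tumors 1 was lower and 1 higher. The binding protein Igfbp4 fell by 1.59 (adjusted p = 0.00396 from limma), Igfbp7 fell by 1.44 (adjusted p = 0.00225) and the protease Htra1 fell by 1.32 (adjusted p = 0.00109). Of 13 other receptors and docking proteins 1 was higher and 3 were lower. Gab1, a docking protein of several receptor kinases, rose by 0.68 (adjusted p = 0.000144), and Grb14, an adaptor that inhibits the insulin receptor, fell by 3.46 (adjusted p = 1.31e-07), the cytokine signalling inhibitor Socs1 by 0.73 (adjusted p = 1.92e-05) and the insulin receptor-related receptor Insrr by 0.34 (adjusted p = 0.025).

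Among 19 measured genes of PI3 kinase, Akt and mTOR signalling 8 were higher, 2 were lower and 9 did not pass, and their median was 0.24 on the log2 scale, where that of all probe sets was -0.06. In passaged tumors 5 were higher, 1 was lower and 13 did not pass. The catalytic subunit Pik3cb rose by 1.11 (adjusted p = 0.000366 from limma), the mTOR complex subunit Rictor by 0.87 (adjusted p = 0.00268) and Tsc2, an inhibitor of mTOR, by 0.83 (adjusted p = 0.000673). The regulatory subunit Pik3r1 fell by 1.59 (adjusted p = 2.72e-05) and the mTOR activator Rheb by 0.28 (adjusted p = 0.00998). Of the Foxo transcription factors, which Akt holds out of the nucleus, Foxo4 rose by 0.50 (adjusted p = 0.00187) and Foxo1 fell by 1.27 (adjusted p = 5.29e-06). Of 6 measured Ras and MAP kinase genes Braf rose by 0.89 (adjusted p = 0.000239) and Nras by 0.48 (adjusted p = 0.00171), and none fell.

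When passaged tumors (25) were set against primary tumors (5) within the new set, adjusting for Brca1 genotype, no member passed in limma, and 0% of all probe sets did, with 2919 of 45037 at an unadjusted p under 0.05 and none of the members' leading probe sets among them. The interval for Irs4 was wide, from -2.93 to 3.21 around a log2 fold change of 0.14. For Igf1r the fold change was -0.11 (95% interval -0.42 to 0.19) and for Igfbp3 0.16 (-0.19 to 0.51).

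Across passage number, which was fitted as a slope over the 18 new tumors deficient in Brca1 with primary tumors as 0, Irs4 and Irs2 rose and Igf1 fell. In this comparison 11.6% of probe sets passed, and of the 10 members 2 were higher, 1 was lower and 7 did not pass. Irs4 was at 4.39 and 9.34 in the primary tumors. It was at 4.24, 5.91, 7.26 and 8.67 in passage 1 and at 4.21, 6.89, 8.72 and 8.78 in passage 2. In passage 3 it was at 8.26, 8.63, 8.64 and 10.20, in passage 4 at 9.18 and 9.70 and in passage 5 at 9.64 and 9.81. From passage 3 on no Irs4 value was near the normal level, while the high values of later passages overlapped the highest of the earlier stages. The slope was 0.77 per passage on the log2 scale (SE 0.25, adjusted p = 0.049 from limma) and 0.74 with near-identical arrays counted once (adjusted p = 0.0384). Irs4, 1 of the 2 members counted as higher, was chosen for its variable level over tumors that include these. Its p-values here are therefore not free of that choice. The Irs4 call was lost when any of 15 of the 18 tumors was left out (adjusted p = 0.0529 to 0.139) and without passages 4 and 5 (0.80, adjusted p = 0.607). The new set holds 2 Brca1-deficient primary tumors, so the slopes of all members may rest on few independent lines. Because the line of each passaged tumor is not given, passage and line cannot be told apart.

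Igf1 fell by 0.43 per passage (SE 0.09, adjusted p = 0.00482 from limma), and its 3 other probe sets by 0.50 to 0.63. Its values were 10.10 and 10.82 in the primary tumors, 9.16 to 11.27 in passage 1, 9.04 to 10.39 in passage 2, 9.11 to 9.37 in passage 3, 7.93 and 9.51 in passage 4 and 8.71 and 8.78 in passage 5. Irs2, which carries insulin signalling in liver and beta cells, rose by 0.17 per passage (SE 0.04, adjusted p = 0.00853), from 7.26 and 7.82 in the primary tumors to 8.42 and 8.52 in passage 5. Both calls held when any tumor was left out, and neither passed without passages 4 and 5, where the slopes were -0.48 for Igf1 (adjusted p = 0.325) and 0.16 for Irs2 (adjusted p = 0.449). Tumors of the same stage overlapped with those of the next for each of the 3 genes, except Irs2 in passage 5, which lay above all others.

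Markers of other cell types moved with passage number in the same tumors. Of 10 macrophage markers 6 were higher with passage number, and their mean was 8.60 to 10.21 from primary tumors to passage 2 and 9.86 to 10.46 in passages 3 to 5. Of 7 T and NK cell markers 4 were higher, of 5 B cell markers 3 and of 6 skeletal muscle markers 3. The mean of the skeletal muscle markers was 5.59 to 9.61 in passages 4 and 5 and 5.37 to 5.86 from primary tumors to passage 2. Not every late tumor was therefore above the early range. The mean of 5 adipocyte markers was 8.16 to 8.74 in passages 4 and 5 and 5.74 to 8.54 from primary tumors to passage 2, and 1 of the 5 was higher with passage number. The part of these cells in the slopes of Irs4, Irs2 and Igf1 was not tested. Of 52 other pathway genes measured, 5 rose and 5 fell with passage number, where 6.25% of all probe sets rose and 5.37% fell. Chosen after their values were seen, Pappa, a protease that frees growth factors from Igfbp4, had a slope of -0.63 (adjusted p = 0.00041 from limma), and the inhibitory adaptors Grb14 and Grb10 had -0.49 (adjusted p = 0.00991) and -0.37 (adjusted p = 0.0351).

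**Figure D4:**
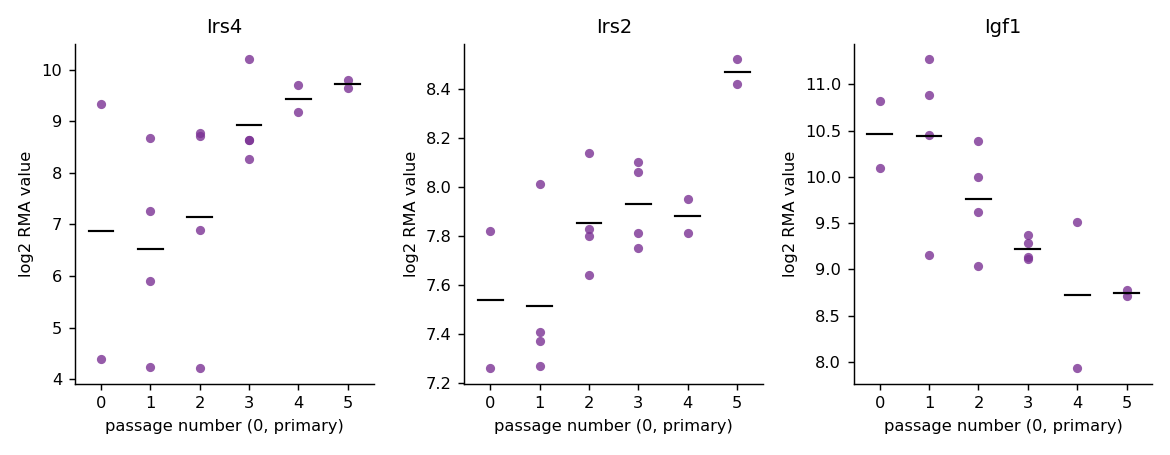
Log2 values of Irs4, Irs2 and Igf1 (y axes) by passage number (x axis, 0 for primary tumors) over the 18 new tumors deficient in Brca1, 1 point per array with a line at each mean over arrays. Irs4 ends at 9.64 and 9.81 and Irs2 at 8.42 and 8.52 in passage 5, and Igf1 declines from 10.10 and 10.82 in the primary tumors to 8.71 and 8.78.

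Igf1r, the receptor of both growth factors, was higher in Brca1-deficient than in Brca1 wild type tumors of the new set. With a term for primary against passaged 8.93% of probe sets passed, and of the 10 members 1 was higher, 1 was lower and 8 did not pass. Igf1r ran from 10.72 to 11.58 with a median of 11.22 in the 18 Brca1-deficient tumors (11.26 ± 0.23, SD, n = 16) and from 9.76 to 11.07 with a median of 10.56 in the 12 wild type tumors (10.50 ± 0.37, SD, n = 11). The log2 difference was 0.72 (SE 0.11, adjusted p = 0.000381 from limma) and 0.78 with near-identical arrays counted once (adjusted p = 0.00025). The paper describes the new set as primary tumors with matching transplants derived from them. It holds 2 Brca1-deficient and 3 wild type primary tumors, so genotype differences in this set may rest on few independent lines. The K18 label also changes together with Brca1 in this set, so the part of each cannot be told apart. All 4 other Igf1r probe sets were also higher, by 0.74 to 0.89 (adjusted p = 0.00163 to 0.00818). The groups overlapped at their edges. Wild type tumors 62803, 59232, 61333 and 57093 had Igf1r values of 10.73, 10.77, 10.91 and 11.07, above the lowest Brca1-deficient tumor, 61362 at 10.72, whose array is nearly identical to that of 62803.

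The separation of Igf1r by genotype differed between the stages that held both, none of which was tested alone. In primary tumors the Brca1-deficient had 11.27 and 11.58 and the wild type 10.35, 10.59 and 10.67. In passage 1 they ran from 10.87 to 11.05 against 10.42 to 11.07, and in passage 2 from 10.72 to 11.29 against 9.76 to 10.91. The groups were apart in primary tumors, while in passage 1 the wild type range contained the Brca1-deficient one and in passage 2 the ranges overlapped. Fitted over these stages together, Igf1r still passed (0.60, adjusted p = 0.0341 from limma), while its 4 other probe sets did not (0.56 to 0.79, adjusted p = 0.0571 to 0.0854). Over all alternatives the difference of the leading probe set lay between 0.60 and 1.13.

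In the published p53-deleted tumors the same contrast did not pass for Igf1r. The 4 Brca wild type tumors had 11.02, 11.39, 11.62 and 11.66, and the 14 Brca1-deficient tumors 11.17 to 11.93 with a median of 11.52, a log2 difference of 0.09 (95% interval -0.20 to 0.38, adjusted p = 0.933 from limma). Of all probe sets 0.0133% passed there, and no member did, with 0 of the members' leading probe sets and 2118 of all probe sets at an unadjusted p under 0.05. The test of the difference between the sets, which 0.0688% of probe sets passed, gave 0.63 for Igf1r (95% interval 0.25 to 1.02, unadjusted p = 0.00182, adjusted p = 0.209 from limma), so that a difference between the sets was not shown after adjustment. With array weights the value was 0.77 (adjusted p = 0.0202). No member passed this test in the main setting, and 2 had an unadjusted p under 0.05, as did 4815 of 45037 probe sets.

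Igf1 was lower in Brca1-deficient tumors of the new set, at 7.93 to 11.27 (9.63 ± 0.90, SD, n = 16) against 10.03 to 11.39 (10.68 ± 0.40, SD, n = 11) in wild type tumors. The log2 difference was -0.98 (SE 0.27, adjusted p = 0.02 from limma). Its 3 other probe sets had -0.77 to -0.95 and did not pass (adjusted p = 0.0807 to 0.15). Without passages 3 to 5, which hold Brca1-deficient tumors only, the Igf1 difference was -0.49 (adjusted p = 0.352), and over those stages genotype and passage cannot be told apart. In the published set Igf1 had -0.68 (SE 0.42, adjusted p = 0.923). In the new set 4.2% of all probe sets were lower in Brca1-deficient tumors and 4.73% were higher. Of 8 endothelial markers 3 were lower there (mean of the list 7.39 to 8.13 against 7.61 to 8.73), as were 2 of 12 epithelial markers (9.85 to 10.87 against 10.03 to 10.63). Among macrophage and B cell markers 1 each was lower, and among smooth muscle and granulosa, theca and luteal markers 1 each was higher. No hepatocyte, adipocyte or skeletal muscle marker passed. The hepatocyte and adipocyte means reached 10.3 and 9.74 in wild type tumors against 6.5 and 8.74 in Brca1-deficient tumors. The skeletal muscle mean reached 6.18 against 9.61. The part of these cells in the Igf1r and Igf1 differences was not tested.

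**Figure D5:**
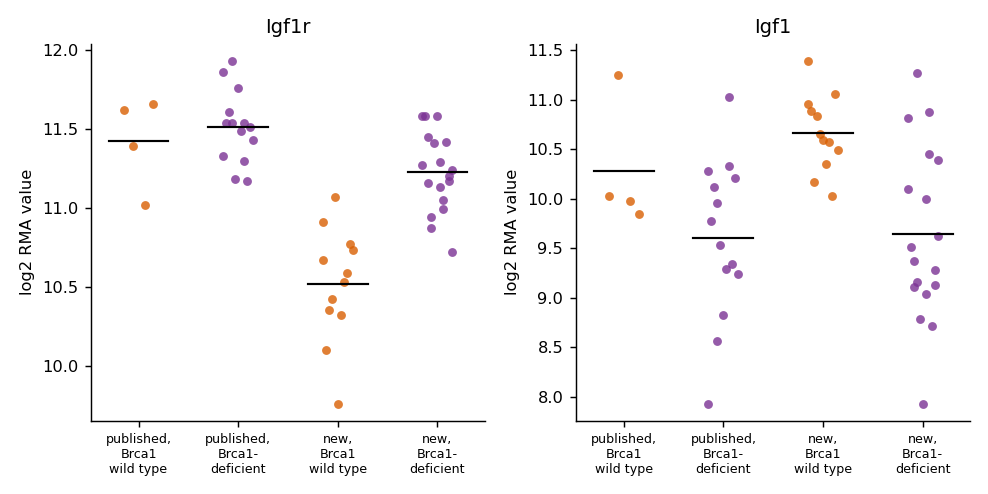
Log2 values of Igf1r and Igf1 (y axes) in p53-deleted tumors by set and Brca1 genotype (x axis), 1 point per array with a line at the mean over arrays. In the new set the Brca1-deficient tumors sit at 10.72 to 11.58 for Igf1r, above most wild type tumors at 9.76 to 11.07, while the groups of the published set cover much the same range.

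The remaining comparisons called no member. Among published Brca1-deficient tumors, those with the p53 missense allele (3) against those with p53 deleted (14) passed for 0.0733% of probe sets, and Irs4 had a log2 difference of 1.95 (95% interval -1.13 to 5.03, adjusted p = 0.713 from limma), with 2 members, Igf1r at -0.35 and Insr at -0.33, and 4557 of 45037 probe sets at an unadjusted p under 0.05. Brca2-deficient against Brca1-deficient p53-missense tumors (5 against 3) passed for 0% of probe sets in limma, with 3865 of 45037 and 0 members at an unadjusted p under 0.05. Igf2 had a log2 difference of -1.76 there (95% interval -3.87 to 0.35). New against published p53-deleted primary tumors passed for 1.31% of probe sets, and of the members Igf1r alone had an unadjusted p under 0.05 (-0.48, adjusted p = 0.111), as did 7100 of 45037 probe sets.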

How the data were processed

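The authors deposited log2 expression values from RMA (version not given in the sources used here), which subtracts background, applies quantile normalization and gives 1 summary value to each probe set. Whether both sets were normalized jointly is not given either. Quantile normalization gives all arrays a like distribution, so differences are relative to it. RNA had been amplified before labelling. The authors also deposited a merged human and mouse table of log2 values, 1 per gene, which served as an alternative (6167 genes, 8 members), and its 278 columns that match no sample were not used. Of the probe sets, 34945 name 1 gene, 932 several and 9160 none in the annotation used.

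From these values, groups were compared with limma 3.58.1 in R 4.3.3 (lmFit and eBayes, two-sided) over all 45037 probe sets, with Benjamini-Hochberg adjustment over all of them and a threshold of 0.05. The scripts were tested on simulated data. The normal samples belong to the published set. The members, pathway lists, marker lists and tests were chosen with earlier results of these data known. Named were all member probe sets, up to 3 genes per pathway list with the largest rise and fall past the threshold in primary tumors against normal epithelium, the 6 genes most like Irs4 and its 3 neighbours on each side. Promoter sequences came from RefSeq, and 9 of 10 members matched. The plots used Python 3.11.15 with matplotlib 3.10.9. Alternatives were 1 probe set per gene, the mean of a gene's probe sets, probe sets at or above the median level, array weights, a trended robust prior, the merged table, other covariates or stages, near-identical arrays counted once and each sample left out in turn. Protein sequences were not used here.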

Additional observations from a re-analysis of the deposited data

Results flagged for a closer look

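Of 50 combinations of a member and a group of 4 to 10 tumors, 8 held a tumor whose gap to the nearest other tumor took most of the group's range, where chance flags about 5% of groups. The flags are not independent, since 3 of them are the same tumor in genes that followed each other, and 2 are of Irs4, which was chosen for its variable level. These are values only. Tumor 60514, a Brca1 wild type tumor of passage 2, was far below the other 3 in 3 genes. This holds only because tumor 62803 of the same group was left out for its near-identical array, and its values of 4.13 for Irs4, 10.38 for Irs1 and 6.86 for Igf2 also lay below those of the other 3. Its Irs4 was 4.39 against 11.98 to 12.83, its Irs1 was 9.91 against 12.23 to 12.40 and its Igf2 was 7.31 against 11.28 to 11.39. Among the 5 Brca2-deficient tumors, Irs4 was 4.40 in tumor 23172 against 10.49 to 11.61 in the others, and Igfbp3 was 10.23 in tumor 21981 against 10.83 to 10.97. Igf1 was 11.25 in the published Brca wild type tumor R5810 against 9.85 to 10.03 in the other 3. In passage 1 of the Brca1-deficient tumors, Insr was 9.82 in tumor 57452 against 10.60 to 10.70, and Igfbp3 was 10.95 in tumor 57454 against 10.48 to 10.53.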

How the results depend on the processing

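Over 2606 values of member probe sets under alternatives, 2510 kept their side of the threshold or, for the untested Irs4, stayed near the main value. Of the rest 51 no longer passed, 43 newly passed and 2 moved (Irs4 in the merged table, at 1.04 and 1.03). No value that passed in either fit reversed. Direction was not compared for values that passed in neither fit. Some of these changed sign, such as Irs4 in passaged against primary tumors, at -0.95 to 1.01. The number of members called changed as follows, and the cause was not tested. Across passage number it was 3, 7 with array weights, 0 without passages 4 and 5, and 2 to 5 with each tumor left out. For Brca1 genotype in the new set it was 2, and 1 with the mean of the probe sets of each gene, in the merged table, and in primary tumors and passages 1 and 2 alone. It was 2 in every fit with a tumor left out. Leaving out each tumor in these comparisons was chosen after seeing the data. The difference of the Brca1 effect between the sets had 0, and 1 with array weights. Passaged tumors against normal epithelium had 2, 4 with no set covariate and 1 to 2 with each normal sample left out. Primary tumors against normal epithelium had 3, 4 with array weights (Igf1 also passed, at -1.03, adjusted p = 0.0273 from limma) and 1 to 2 with each normal sample left out. Counts over all features ranged from 2832 to 22096 and from 1859 to 19727 in the comparisons of primary and passaged tumors with normal epithelium, from 3 to 12452 across passage number, from 446 to 7516 for Brca1 genotype in the new set and from 1 to 13 in the published set, from 3 to 796 for the difference between the sets, from 5 to 282 for p53 missense, from 0 to 26 for passaged against primary tumors, from 0 to 140 for Brca2 against Brca1 deficiency and from 0 to 1025 for the new against the published set. No paired analysis was possible because replicate numbers only name tumors and the line of each passaged tumor is not given. Signals near the array's low end, such as Irs4 in normal epithelium, limit how far below them a level could be told.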
